A study of Mus musculus with 14 samples.

Results

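H3K4me3 regions deep inside genes are stretches marked by trimethylated histone H3 lysine 4 that overlap a gene and lie away from the annotated starts of genes. They were chosen by position and by how many peak lists held them. Peaks of the 7 H3K4me3 lists that overlapped or touched were merged into 14659 consensus regions, and a region was kept when it overlapped a gene, lay more than 3 kb from every gene start that could be placed and was called in at least 2 lists. Of the 11868 consensus regions called in at least 2 lists, 1341 met these criteria. Another 9660 lay within 1 kb of a gene start, 596 lay at 1 to 3 kb from one, and 271 lay outside genes. Near the distance limit, 101 deep regions lay 3 to 3.5 kb from a gene start. At 2.5 to 3 kb there were 102 regions, for which overlap with a gene was not required. Near the other limit, 332 deep regions were called in exactly 2 lists against 955 that were called in 1 list and left out. Of those 955, 428 came from HFD-LSK replicate 2 and 421 from HFD-LSK replicate 3.

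The lists came from CUT&Tag, in which an antibody guides a transposase to a histone mark so that the DNA beside it can be sequenced. The cells were bone marrow LSK cells (lineage-negative, Sca-1+, c-Kit+), the compartment of blood stem and progenitor cells, sorted from male C57BL/6J mice. Mice received a high-fat diet with 60% of calories from fat (HFD, 3 libraries) or a low-fat diet with 10% (LFD, 4 libraries) for 16 to 20 wk from an age of 3 to 4 wk, with 10000 cells per library. The labels did not say whether libraries came from separate animals, so p-values measure the spread between these libraries, which may be technical. All mice were of this strain and sex, and diet was the labelled difference between the groups. The paper states that a further cohort was added for this comparison and that its peak analysis took batch and pairing into account. The sample labels named neither the cohort nor the pair of a library. In a bulk library, fewer marked cells and a weaker mark in each cell cannot be told apart.

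H3K4me3 is deposited around active and poised promoters, and the level at a start usually follows promoter CpG content and transcription. Many genes hold more than 1 promoter, and a promoter inside the gene gives a shorter or differently spliced transcript. The mark can also appear at strong enhancers, where H3K4me1 is the more usual form. The label of the cells was checked at gene starts. Of 12 placed markers of stem and progenitor cells, 10 had a region at their start in at least 2 lists and 5 in all 7, among them Kit, Cd34, Gata2, Meis1 and Mecom. The starts of Ly6a, which encodes Sca-1, and of Slamf1 were in no list. All 6 T cell markers and all 8 markers of mature myeloid cells were in no list, and of the other lists only Cd79b (B cells, 3 lists), Klf1 (erythroid cells, 6) and Cxcl12 (stroma, 2) were in at least 2. The part of such cells in the results was not tested.

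The sequences just upstream of transcript starts are shown for a few host genes as examples. Some of their deep regions were among the strongest, and those of Runx1, Runx3 and Erg were not. Pairs from single genes are shown because the first start and an internal start could be set side by side. Each run is the 150 bases before a transcript start in RefSeq (GRCm38.p6), 5′ to 3′, with CpG dinucleotides in capitals. In Kdm4c, which encodes a histone lysine demethylase, the first start was in 0 lists and had 0 CpG in this window, whereas the start 9382 bp downstream lay in a deep region called in 7 lists and had 15.
First start of Kdm4c, chr4:74242347-74242496, strand +: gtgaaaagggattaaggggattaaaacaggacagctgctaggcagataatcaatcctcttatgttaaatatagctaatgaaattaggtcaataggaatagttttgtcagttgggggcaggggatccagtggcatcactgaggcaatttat
Internal start of Kdm4c, chr4:74251729-74251878, strand +: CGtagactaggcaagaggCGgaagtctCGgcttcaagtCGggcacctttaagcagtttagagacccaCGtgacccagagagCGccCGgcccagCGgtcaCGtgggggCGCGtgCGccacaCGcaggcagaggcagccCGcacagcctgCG
Dpy30 encodes a core subunit of the complexes that methylate H3K4. Its first start was in 0 lists and had 0 CpG, and a start 7550 bp downstream lay in a region called in 7 lists and had 22.
First start of Dpy30, chr17:74323945-74324094, strand -: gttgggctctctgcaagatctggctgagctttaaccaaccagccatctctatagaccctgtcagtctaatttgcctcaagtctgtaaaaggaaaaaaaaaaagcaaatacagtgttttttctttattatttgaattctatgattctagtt
Internal start of Dpy30, chr17:74316395-74316544, strand -: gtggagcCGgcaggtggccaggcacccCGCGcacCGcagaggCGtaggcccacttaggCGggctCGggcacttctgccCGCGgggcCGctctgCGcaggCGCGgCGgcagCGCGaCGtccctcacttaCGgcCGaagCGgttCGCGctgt
Runx3, a Runt-domain transcription factor of lymphoid and myeloid cells, differed in the same direction, with 5 CpG before a first start found in 0 lists and 25 before a start 31900 bp downstream found in 7.
First start of Runx3, chr4:135120495-135120644, strand +: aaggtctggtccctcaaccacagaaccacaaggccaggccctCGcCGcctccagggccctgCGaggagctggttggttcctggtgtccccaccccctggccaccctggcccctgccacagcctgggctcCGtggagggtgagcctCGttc
Internal start of Runx3, chr4:135152395-135152544, strand +: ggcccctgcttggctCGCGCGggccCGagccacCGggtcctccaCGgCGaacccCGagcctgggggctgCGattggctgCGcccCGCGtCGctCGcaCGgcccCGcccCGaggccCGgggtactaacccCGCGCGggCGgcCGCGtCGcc
In Runx1, a Runt-domain factor needed for definitive hematopoiesis that is transcribed from a distal and a proximal promoter, both starts were marked. The distal start had 2 CpG and was in 5 lists, and the proximal start, 128745 bp downstream, had 12 and was in 6.
First start of Runx1, chr16:92826075-92826224, strand -: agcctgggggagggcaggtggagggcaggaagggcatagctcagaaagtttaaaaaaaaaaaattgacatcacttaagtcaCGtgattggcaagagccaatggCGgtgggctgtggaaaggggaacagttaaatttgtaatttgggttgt
Internal start of Runx1, chr16:92697330-92697479, strand -: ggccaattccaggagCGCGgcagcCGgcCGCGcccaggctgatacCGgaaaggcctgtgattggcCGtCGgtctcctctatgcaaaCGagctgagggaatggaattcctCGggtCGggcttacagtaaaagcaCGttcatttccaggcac
CpG content did not set apart every marked internal start. In Elf1, Ikzf1 and Mecom, not shown here, the first start had 21, 21 and 12 CpG and was in 7 lists. Their internal starts in deep regions had 2, 1 and 7 CpG and were in 3 lists. The start inside Erg, an ETS factor of stem cells, lay 127252 bp into the gene with 1 CpG and was in 6 lists, while the first start of the gene had 10 CpG and was in 0.
First start of Erg, chr16:95586594-95586743, strand -: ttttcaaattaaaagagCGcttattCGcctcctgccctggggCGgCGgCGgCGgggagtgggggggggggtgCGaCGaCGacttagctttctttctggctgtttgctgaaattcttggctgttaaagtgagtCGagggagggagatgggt
Internal start of Erg, chr16:95459349-95459498, strand -: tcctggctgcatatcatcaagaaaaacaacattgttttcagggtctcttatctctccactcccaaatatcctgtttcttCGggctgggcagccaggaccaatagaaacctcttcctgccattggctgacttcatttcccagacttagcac
Stim1 and Dnmt3a are shown as internal starts with many CpG in regions called in 7 lists. Stim1, which encodes the calcium sensor of the endoplasmic reticulum, had 21 CpG at a start 6305 bp into the gene, and Dnmt3a, a de novo DNA methyltransferase often mutated in blood stem cells, had 28 at a start 5601 bp in.
Internal start of Stim1, chr7:102267669-102267818, strand +: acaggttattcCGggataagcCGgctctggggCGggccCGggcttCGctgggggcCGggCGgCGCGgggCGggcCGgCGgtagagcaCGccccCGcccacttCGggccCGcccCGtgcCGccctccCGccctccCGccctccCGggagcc
Internal start of Dnmt3a, chr12:3807010-3807159, strand +: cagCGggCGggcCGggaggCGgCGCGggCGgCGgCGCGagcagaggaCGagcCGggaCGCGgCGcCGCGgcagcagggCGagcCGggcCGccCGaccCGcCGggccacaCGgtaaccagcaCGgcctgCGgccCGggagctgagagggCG

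CpG content was then compared over all internal starts. RefSeq lists 3337 transcript starts that lie inside a gene and over 3 kb from every gene start, and 750 of them (22.5%) had a region within 1 kb in at least 2 lists, compared with 7799 of 22803 first starts (34.2%). The median ratio of observed to expected CpG in the 250 bases before the start was 0.666 at the 750 marked internal starts and 0.213 at the 2478 internal starts in no list. A ratio of at least 0.6 was found at 58.9% of the former and 5.65% of the latter. First starts showed the same order, with 74.3% of the marked ones and 8.08% of those in no list reaching that ratio. These shares are descriptions without a test. Of short motifs searched on both strands in this window, GGAAGT, a core bound by ETS factors, was present at 22.0% of marked internal starts, at 15.8% of those in no list and at 19.7% of all listed starts. TATAAA was present at 4.53%, 15.1% and 12.4%, and AGATAA, the core bound by GATA factors, at 5.33%, 12.7% and 9.98%. TGTGGT was at 11.5%, 16.8% and 14.0%, TGACGT at 8.53%, 4.08% and 6.47%, and CCAAT at 31.1%, 32.6% and 33.9%. Among first starts, TATAAA was at 5.51% of those in at least 2 lists and 18.6% of those in no list. AGATAA was at 5.18% and 13.8%. The median GC content was 60.4% at marked internal starts and 48.0% at internal starts in no list. Its part in these shares was not tested. A match is a run of letters and does not show that a factor was bound.

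Of the 1341 deep regions, 565 (42.1%) lay within 1 kb of a transcript start that RefSeq lists for an overlapping gene, and in 521 of these the start lay inside the region. Another 479 (35.7%) lay in a host with listed starts but had none within 1 kb. The host had no entry in the table for 251 (18.7%), and 46 (3.43%) were on the chromosome for which no starts were listed, so neither class was assigned for them. The hosts were protein coding for 1233 regions (91.9%) and long noncoding RNA genes for 70 (5.22%). Strand was unknown for some genes, so their starts could not be placed, and 99 of the deep regions (7.38%) lay within 3 kb of an end of such a gene, so they may lie at its start. Of these 99, 26 were hosted by tRNA genes. Among all deep regions, 22 covered their whole host gene, 21 of them tRNA genes, and so were not inside a gene in the strict sense. Whether a region overlapped an exon or an intron was not analysed here.

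Many of the regions at a listed start lay in a gene whose own start was unmarked. The start of the host gene was in no list for 326 of the 565 regions at a listed start (57.7%) and in all 7 lists for 98 (17.3%). For the 479 regions away from listed starts these counts were 161 (33.6%) and 142 (29.6%). Among all 18266 protein-coding genes longer than 3 kb, the start was in no list for 7882 and in all 7 lists for 4334. The host start or another listed start of an overlapping gene was called in at least 2 lists for 266 of the 565 regions (47.1%). For the 479 regions this number was 344 (71.8%). A region at a gene start lay within 10 kb of 103 of the 565 (18.2%) and 132 of the 479 (27.6%).

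Deep regions were spread along their hosts. The median region was 1130 bp long (range, 306 to 5611 bp), began 15924 bp from the host start and lay at a relative position of 0.405, where 0 is the start and 1 the end of the gene. The distance to the nearest gene start of any gene had a median of 11048 bp and reached 393815 bp. Regions at a listed start lay toward the front, with 28.0% in the first 20% of the gene and 6.02% in the last 20%. Regions away from listed starts were nearly level, with 91 of 479 in the first 20% and 21.1% in the last.

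**Figure D1:**
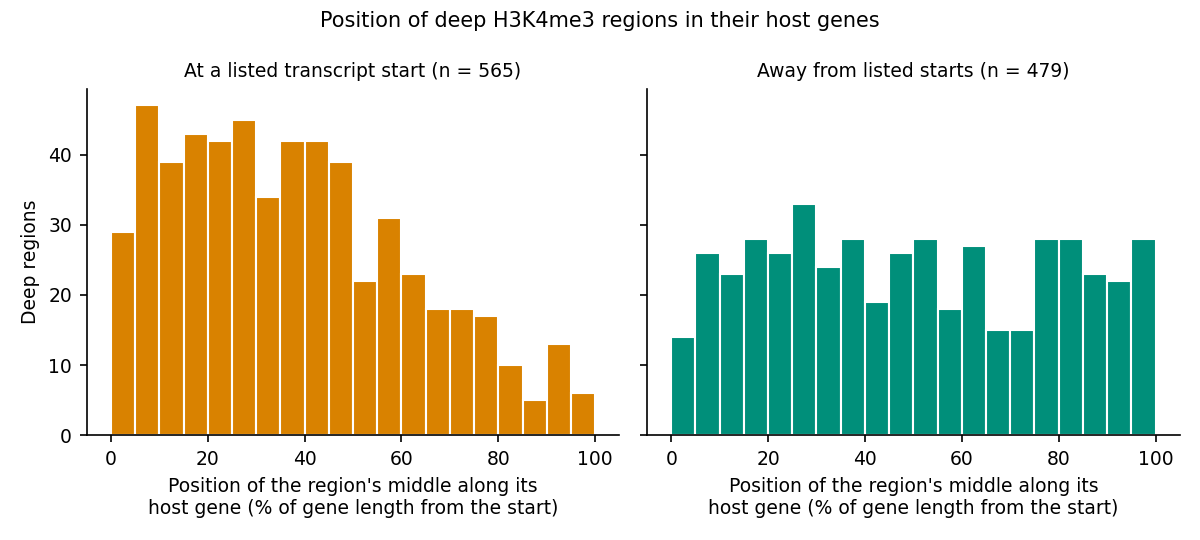
Number of deep H3K4me3 regions (y axis) by the position of the region's middle along its host gene, in percent of the gene's length from its start (x axis, bins of 5%), for 565 regions at a listed transcript start and 479 away from one. The first group thins out toward the end of the gene, where the last 20% holds 6.02% of it, and the second does not, with 21.1% there.

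Among 18266 protein-coding genes longer than 3 kb, 1028 (5.63%) held a deep region, or 1.23 deep regions per Mb of sequence more than 3 kb from a start. The share of genes with a deep region was higher among longer genes and the density was lower. A deep region was found in 2.87% of genes of 3 to 30 kb and in 15.3% of genes over 0.3 Mb, while the density fell from 2.97 to 0.381 per Mb. The density was 1.28 per Mb in genes whose start was in no list and 1.29 per Mb in genes whose start was in all 7. Over regions with no listed start within 1 kb, including hosts without an entry, it was 0.535 and 0.844 per Mb.

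The hosts included many regulators of blood stem cells, counted here in lists chosen with earlier results of these data known and described without a test. Of 48 stem and progenitor transcription factor genes, 24 hosted 38 deep regions, a density of 5.82 per Mb against 1.23 over all genes. Chromatin and DNA methylation regulators held 18 deep regions in 14 of 46 genes (30.4%), at 3.64 per Mb, and a list of adhesion and cytoskeleton genes held 13 in 7 of 30 (23.3%), at 2.27 per Mb. That list also contained Elf1, a transcription factor gene, and Celf2, a gene for an RNA-binding protein, which held 5 and 3 of the 13 regions and left 5 in the others. Receptors and signal transducers held 6 in 5 of 40 genes (12.5%), at 2.03 per Mb. In 20 genes known for more than 1 promoter, 8 (40.0%) held 11 deep regions, at 1.16 per Mb. Long genes best known from the nervous system held 3 in 2 of 25 genes, or 0.0830 per Mb. The starts of 16 of these 25 were in no list and those of 3 were in all 7, Dlg2, a host of 2 deep regions, among the latter. Of the 38 regions in the transcription factor list, 10 were at a listed start and 23 were away from one. The lists held longer genes than the whole set. Their median gene length ran from 57132 bp (receptors and signal transducers) to 1278324 bp (nervous system), against 22933 bp over all genes. All genes over 0.3 Mb held 0.381 deep regions per Mb. The part of gene length in these shares and densities was not tested.

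Some hosts held several deep regions. Of 1052 protein-coding hosts, 904 held 1, 121 held 2, 22 held 3, 4 held 4 and 1 held 5. The gene with 5 was Elf1, which encodes an ETS transcription factor of hematopoietic cells. Its start was in 7 lists, and the deep regions began 5818, 33879, 37139, 40055 and 55018 bp downstream and were called in 2, 3, 6, 4 and 2 lists. The region at 33879 bp contained the internal listed start. The other hosts with the most regions were Erg, Nfia, Bcor, which encodes a subunit of a Polycomb-type repressor complex, and Arhgap23. In Erg, 4 regions lay 126583 to 148118 bp from a first start that was in no list, and the one over the internal start was called in 6 lists and the others in 3, 3 and 2. Nfia, which encodes a nuclear factor I protein, had 4 regions between 173090 and 201163 bp, called in 6, 6, 6 and 7 lists. Its start was in no list, and its only listed transcript start lay 3877 bp in. In Bcor the regions were called in 6, 6, 2 and 2 lists, and in Arhgap23 in 7, 2, 2 and 5. Regions of 1 gene share a host and are not independent.

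**Figure D2:**
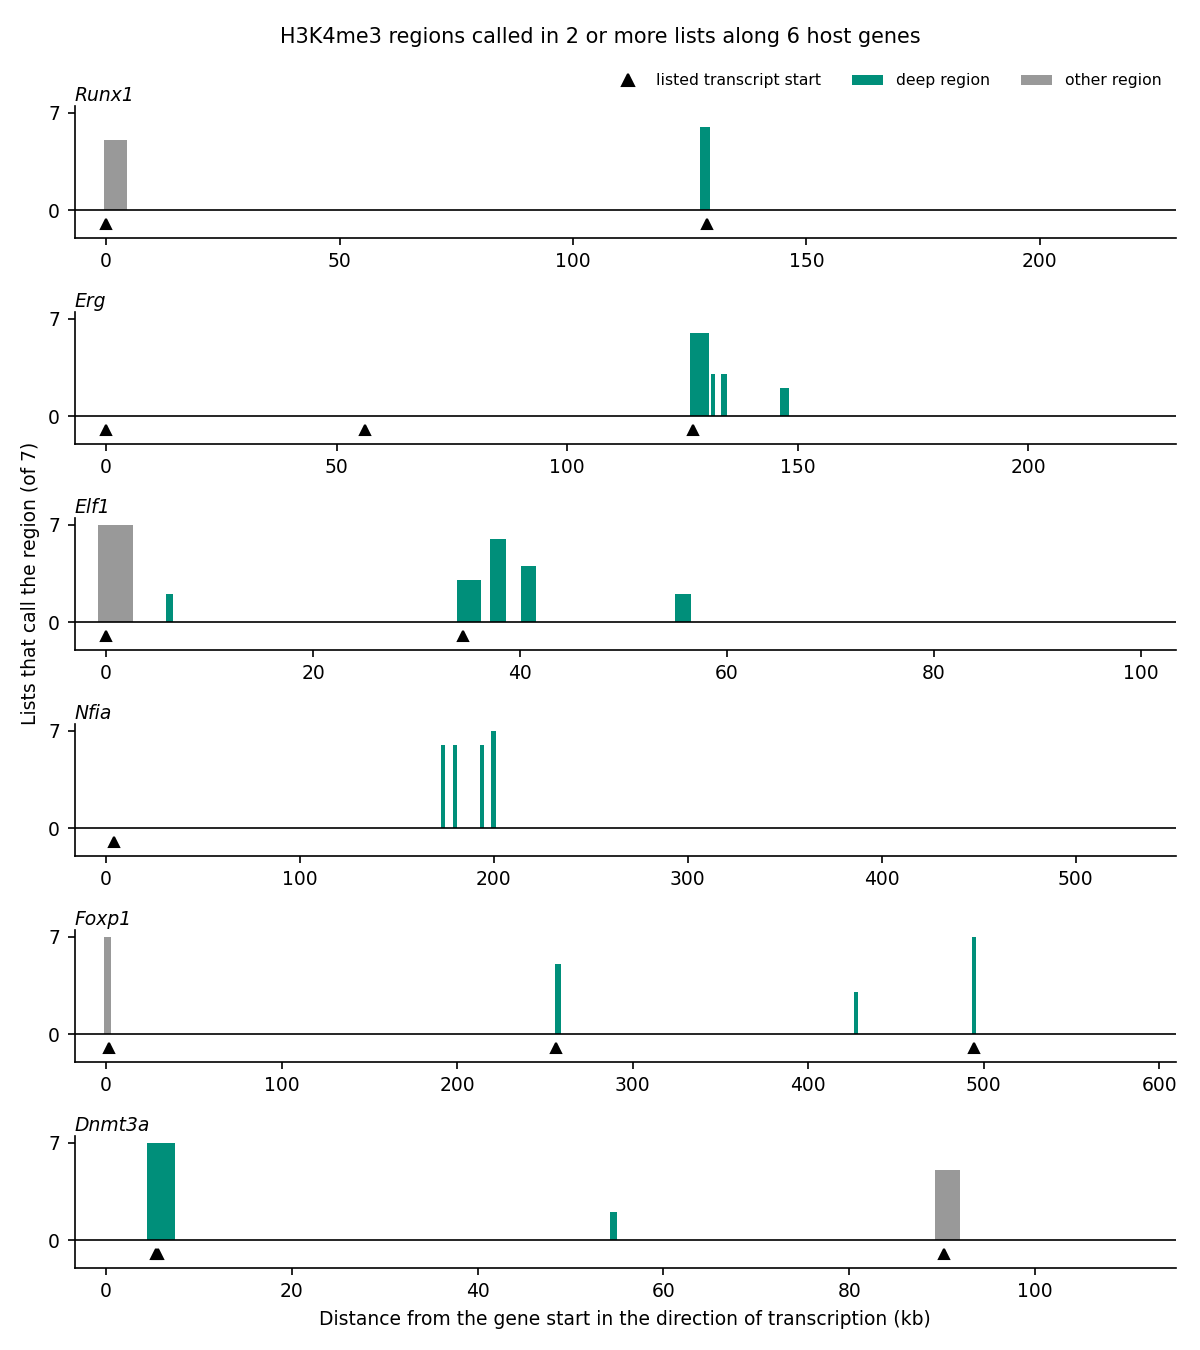
H3K4me3 regions called in at least 2 lists along 6 host genes, with distance from the gene start in kb on the x axis and the number of lists that called the region, of 7, as bar height. Green bars are deep regions, grey bars are regions in other classes, and triangles mark transcript starts listed by RefSeq. The deep regions of Runx1, Foxp1 and Dnmt3a called in 5 or more lists sit on triangles, and the 4 of Nfia sit far from the only one.

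Other stem cell regulators hosted deep regions at varied strength. Runx2, a Runt-domain factor best known in bone, held a region of 5580 bp at chr17:44733139-44738718 that was called in 7 lists, whereas its own start was in 1. Tal1, a basic helix-loop-helix factor of blood specification, had one at 6061 bp from a start that was in 7 lists. Spi1, which encodes the myeloid and lymphoid factor PU.1, had a region of 2992 bp at 13915 bp, called in 7 lists. The annotated gene start was in 1. No transcript start was listed for Spi1, so whether this region lies at a promoter of the gene could not be told. Both regions in Lmo2, a scaffold of the Tal1 complex, lay in a gene whose start was in no list and were called in 5 and 2 lists. Foxp1, a forkhead factor, held regions at 255811, 426392 and 493653 bp that were called in 5, 3 and 7 lists, the outer 2 at listed starts. Meis1, a homeobox partner of Hox proteins, held 3, called in 7, 4 and 2 lists, within 10390 bp of a start in 7. Nfix had a region in 7 lists at 97.4% of its length, and the nearest listed start there was that of Lyl1, 4822 bp away. The regions in Ikzf1 and Mecom were weaker and were each called in 3 lists at internal listed starts that had 1 and 7 CpG, while the first starts of both genes were in 7.

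Ranks were used to compare strength, because the fold enrichment of a peak over background depends on the depth and background of the libraries behind its list. A rank percentile of 0 is the peak with the largest fold in a list and 100 the smallest. The 10 deep regions called in 7 lists with mean percentiles nearest the top were those in Stim1, Chd9, Mllt10, Brd3, Cops3, Set, Kdm4c, Dpy30, Zfp638 and Arih2, with mean percentiles from 5.11 to 13.0. In HFD-LSK replicates 1 to 3 the Stim1 region (chr7:102266386-102269038) stood at percentiles 0.0544, 0.848 and 1.79, and in LFD-LSK replicates 1 to 4 at 25.6, 0.393, 4.01 and 3.07. The groups overlapped, and LFD-LSK replicate 1 alone ranked it low. Brd3, which encodes a bromodomain reader of acetylated histones, had its region at chr2:27474017-27476614, at 2.94, 2.60 and 2.36 in HFD-LSK and 2.34, 31.4, 5.83 and 5.77 in LFD-LSK. Kdm4c (chr4:74251175-74252911) stood at 6.17, 5.69 and 6.67 against 6.32, 24.7, 12.8 and 12.5. The lists overlapped between diets for both genes.

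All of these 10 regions except the one in Chd9 were at a listed start of their host. The Chd9 region (chr8:90907631-90909815), in a gene for a chromodomain helicase, lay 79329 bp from the gene start and 22434 bp from the nearest listed start. Its percentiles were 2.14, 1.26 and 1.37 in HFD-LSK and 4.05, 25.7, 1.56 and 2.70 in LFD-LSK, so it was among the strongest peaks of 6 lists. The start of the host was in no list for Stim1, Brd3, Kdm4c, Dpy30 and Arih2, and in 6 or 7 lists for Mllt10, Cops3, Set and Zfp638. The fold of the Stim1 region was 18.3 to 39.5 in the HFD-LSK lists. Its fold was 6.48 to 24.7 in the LFD-LSK lists. The highest fold of any peak was 13.6 in LFD-LSK replicate 1 and 60.6 in HFD-LSK replicate 2.

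Chromatin regulators had strong internal regions as well. Dnmt1, the maintenance DNA methyltransferase, had a region at chr9:20951017-20953085, 6803 bp into a gene whose first start was in no list. It stood at percentiles 8.90, 6.82 and 80.2 in HFD-LSK and 9.14, 3.29, 14.1 and 1.81 in LFD-LSK, with HFD-LSK replicate 3 far below the others. Hdac4, a class IIa histone deacetylase, showed the same feature, at 4.97, 2.28 and 81.8 against 35.1, 2.57, 4.54 and 12.5. The Dnmt3a region (chr12:3805961-3808995), which held both internal starts near the front of the gene, stood at 54.7, 39.1 and 14.2 against 31.7, 31.8, 12.8 and 20.7. The listed start of Dnmt3a that lies 90185 bp in was in 5 lists in a region near the start of another gene and was not counted as deep. The Runx1 region was called in 6 lists at 94.3, 49.5 and 96.4 in HFD-LSK and 89.2, 64.5 and 7.62 in LFD-LSK replicates 1 to 3, with a wide spread within each diet and overlap between them.

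Compared with regions at gene starts, deep regions were lower in the lists and narrower. The median percentile of deep regions called in a list was 63.5, 61.8 and 49.1 in HFD-LSK replicates 1 to 3 and 63.3, 64.5, 64.9 and 60.7 in LFD-LSK replicates 1 to 4, and that of start regions was 46.3, 40.3 and 42.5 against 47.2, 44.8, 44.7 and 45.8. Deep regions were lower in 7 of 7 lists, by a mean of 16.6 ± 5.0 points (SD, n = 7; exact sign-flip permutation test, two-sided, p = 0.0156, the smallest that 7 lists can give, and 0.0250 after Benjamini-Hochberg adjustment over 16 tests). HFD-LSK replicate 3 stood apart with the smallest difference, 6.61 points. The median peak width was 735 bp against 896 bp, a mean difference of -161 bp in the same direction in 7 of 7 lists (exact permutation p = 0.0156). Deep regions stood nearer the top than regions outside genes by 11.8 points and were 183 bp wider (both exact permutation p = 0.0156). Against regions 1 to 3 kb from a start the differences were 1.15 points (range over lists, -2.47 to 4.69) and -8.57 bp (-70.0 to 29.0), with exact permutation p = 0.359 and 0.641.

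The listed transcript starts divided the deep regions into unlike groups. Regions at a listed start had a mean of per-list medians at 53.4, and regions away from one at 73.8, lower by 20.4 ± 5.2 points in 7 of 7 lists (exact permutation p = 0.0156, adjusted 0.0250). Their peaks were 826 and 619 bp wide, a difference of -207 bp in 7 of 7 lists (exact permutation p = 0.0156). Regions at a listed start were below gene start regions by 8.83 points, and regions away from one differed from regions outside genes by 0.833 points (range, -4.41 to 5.02; exact permutation p = 0.50), though they were 66.6 bp wider in 7 of 7 lists (exact permutation p = 0.0156). The groups also differed in how many lists called them. All 7 lists held 31.2% of regions at a listed start and 7.93% of those away from one, against 41.2% of start regions, 8.12% of regions outside genes and 20.6% of all deep regions. Among regions called in all 7 lists the 38 away from a listed start stood 5.38 points lower than the 176 at one (exact permutation p = 0.219), which did not exceed the spread between lists.

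**Figure D3:**
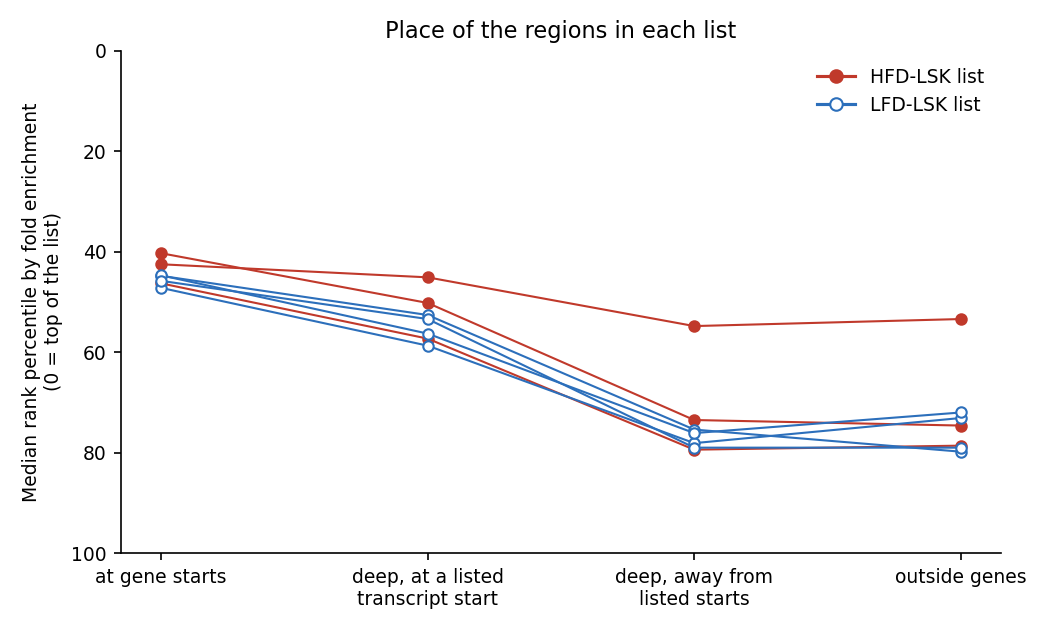
Median rank percentile by fold enrichment in each list (y axis, 0 is the top of the list) for 4 classes of regions called in at least 2 lists (x axis), with a line per list (red, filled, HFD-LSK; blue, open, LFD-LSK). Every line runs down from gene starts to deep regions at a listed start and on to deep regions away from one, and HFD-LSK replicate 3 stays above the others in the last 2 classes, at 54.8 for deep regions away from listed starts.

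Regions away from listed starts that were nevertheless called in every list included Ptpn18 (a tyrosine phosphatase), Cabin1 (a calcineurin-binding protein), Baz1a (a subunit of chromatin remodelers) and Zc3h14 (a polyadenosine RNA-binding protein), named after their values were seen because they followed Chd9 in mean percentile. The Ptpn18 region (chr1:34471492-34474101) lay 11763 bp into the gene at percentiles 13.5, 2.08 and 20.9 in HFD-LSK and 7.45, 36.2, 3.84 and 17.6 in LFD-LSK. It stood at a relative position of 0.930 and ran past the end of the gene. The Baz1a region (chr12:54984386-54986786) lay 27585 bp in, at 18.6, 9.30 and 29.4 against 21.7, 17.6, 6.24 and 54.7. Values of the diets overlapped in both.

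The number of deep regions called followed the length of the list. HFD-LSK replicates 1 to 3 held 9186, 13094 and 11977 peaks and called 53.8%, 96.3% and 78.0% of the deep regions. LFD-LSK replicates 1 to 4 held 7447, 10572, 10352 and 6921 peaks and called 38.3%, 72.0%, 67.5% and 37.6%. The order of the shares was the order of list length in all 7 lists. The mean share was 76.0% ± 21.3 (SD, n = 3) in HFD-LSK and 53.8% ± 18.4 (SD, n = 4) in LFD-LSK, a difference of 22.2 points with overlapping lists. The same calls chose the regions, so this difference is a description without a test. Over all regions called in at least 2 lists, chosen in the same way, it was 15.9 points. By class, it was 14.1 points for regions at gene starts, 23.3 for those 1 to 3 kb from a start and 29.3 for those outside genes. The difference was thus not particular to deep regions. With as many peaks from each list as the shortest holds, the difference for deep regions was 1.23 points, and without HFD-LSK replicate 2 it was 12.6 points. Deep regions made up 8.08%, 9.93% and 9.32% of the called regions in HFD-LSK and 7.09%, 9.49%, 9.23% and 7.74% in LFD-LSK, a difference in means of 0.725 points. Diet and list length cannot be told apart where the longest lists are HFD-LSK replicates 2 and 3. The lists gave no read totals, so depth was not known and a missing call was not a measured absence.

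**Figure D4:**
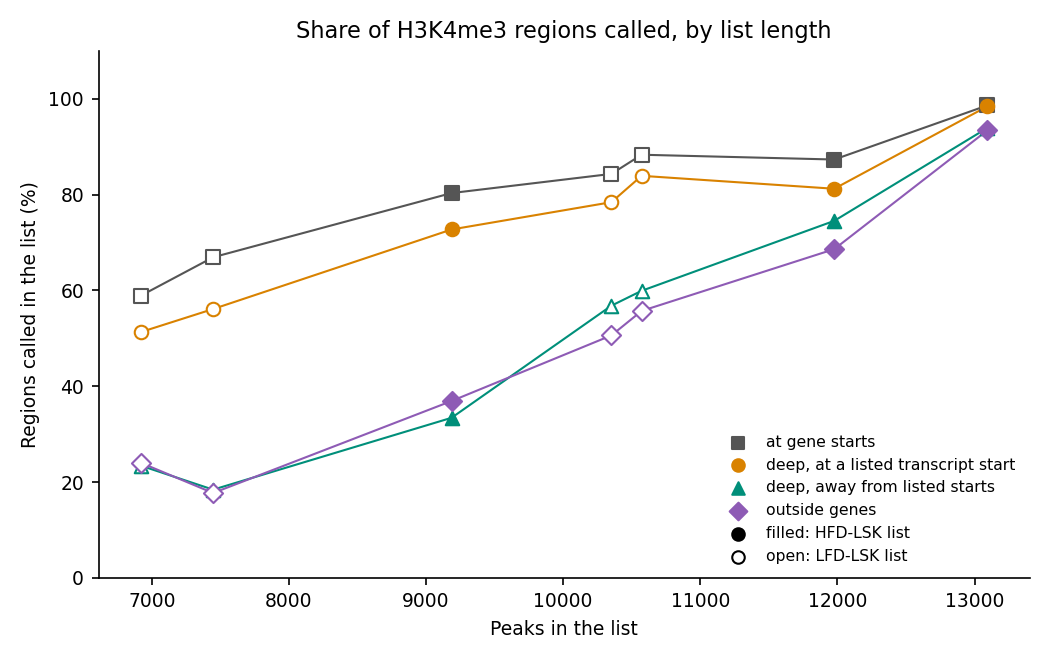
Share of the regions of 4 classes that a list called (y axis, percent) by the number of peaks in that list (x axis), for the 3 HFD-LSK lists (filled) and the 4 LFD-LSK lists (open). Regions at gene starts and deep regions at a listed start fall to 58.9% and 51.3% in the shortest list, and deep regions away from listed starts run from 18.4% to 93.9% alongside regions outside genes.

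The sharper dependence lay in the regions away from listed starts. These were called at 33.4%, 93.9% and 74.5% in HFD-LSK and 18.4%, 59.9%, 56.8% and 23.4% in LFD-LSK (difference in means, 27.7 points). Regions at a listed start were called at 72.7%, 98.4% and 81.2% against 56.1%, 83.9%, 78.4% and 51.3% (difference, 16.7 points). Both overlapped between diets.

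The number of deep regions called in 1 diet alone depended on which lists had to hold them. Deep regions called in all 3 HFD-LSK lists and no LFD-LSK list numbered 5 of 1341 (0.373%), beside 44 of 11868 (0.371%) over all regions called in at least 2 lists. These counts describe the calls that chose the regions and carry no test. None was called in all 4 LFD-LSK lists and no HFD-LSK list, and the share over all regions was 0 of 11868 (0%). The 5 were in Rpgrip1, Prss23, Epb41l1, Cops7b and Irf2bp2, and their peaks lay below the middle of every HFD-LSK list but 1, that of Rpgrip1 in replicate 3. The Rpgrip1 region, in a gene for a ciliary protein, stood at percentiles 93.4, 74.9 and 24.4 in HFD-LSK replicates 1 to 3. The Prss23 region, over an internal listed start of a serine protease gene, stood at 83.8, 65.2 and 69.3. Irf2bp2, a corepressor of interferon regulatory factors, had its region at 90.4, 74.9 and 92.1 toward the end of a gene whose start was in 7 lists. HFD-LSK lists alone called 141 deep regions (10.5%), beside 605 of 11868 regions over all classes (5.10%). Replicates 2 and 3 alone, the longest lists, held 130 of the 141 (9.69% of deep regions, beside 4.55% of all regions). More than 1 LFD-LSK list and no HFD-LSK list called 8 deep regions (0.597%), beside 36 of all regions (0.303%). Without HFD-LSK replicate 1, the deep regions called in every HFD-LSK list and no LFD-LSK list numbered 135 (10.1%), beside 584 of 11848 regions over all classes (4.93%).

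Of the 276 deep regions called in 7 lists, 6 (2.17%) stood nearer the top in every HFD-LSK list than in any LFD-LSK list and 11 (3.99%) stood farther, beside 65 of 4395 (1.48%) and 184 of 4395 (4.19%) over all regions called in 7 lists. These counts rest on list ranks, which grow with list length: the mean rank was higher in HFD-LSK by a median of 554 places over the 276 and 657 places over the 4395. When ranks were taken among the 4395 regions alone, 9 deep regions (3.26%) were nearer and 4 (1.45%) farther, beside 117 (2.66%) and 105 (2.39%). By both ways of ranking, 5 were nearer and 4 farther. Thus the balance of directions turned with the way of ranking, and the shares among deep regions were of the size seen over all regions.

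By list rank, Gramd1b, Akr1b3 and Arntl had the largest differences toward the top in HFD-LSK, and Ddx50, Adcy9 and Tapt1 the largest away from it. These regions were picked because their list ranks did not overlap, so their ranks are descriptions without a test. The Ddx50 region (chr10:62650423-62651797), over an internal start of an RNA helicase gene whose first start was in no list, ranked 2725, 3592 and 2874 among the 4395 regions in HFD-LSK and 196, 204, 209 and 160 in LFD-LSK. The 4 LFD-LSK lists lay together near the top and all 3 HFD-LSK lists lay far below them (mean difference, 2871 places). Adcy9, an adenylyl cyclase gene, ranked 3429, 3020 and 3954 against 1557, 2160, 2404 and 792. In the other direction, the Gramd1b region (chr9:40454803-40456383), in a gene for a sterol transfer protein, ranked 1504, 2035 and 258 against 3088, 4293, 4044 and 3702. Arntl encodes the clock factor BMAL1. Its internal start region (chr7:113206678-113208419) ranked 2684, 2424 and 548 against 3215, 3776, 3206 and 3984, and its first start was in no list. The groups did not overlap for these 4 genes. The Akr1b3 region, in a gene for an aldose reductase, spanned the end of a host of unknown strand and may thus lie at its start. With both ends of such genes taken as starts it dropped out, and 5 regions were nearer. It overlapped between diets when ranked among the 4395, at 1852, 978 and 55.5 against 2600, 1842, 3536 and 4144. The Tapt1 region ranked 3042, 2365 and 4072 against 1993, 785, 1107 and 2228, without overlap. With 7 lists the smallest exact permutation p is 0.0286, which cannot carry a single region of 4395 past an adjusted threshold of 0.05.

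**Figure D5:**
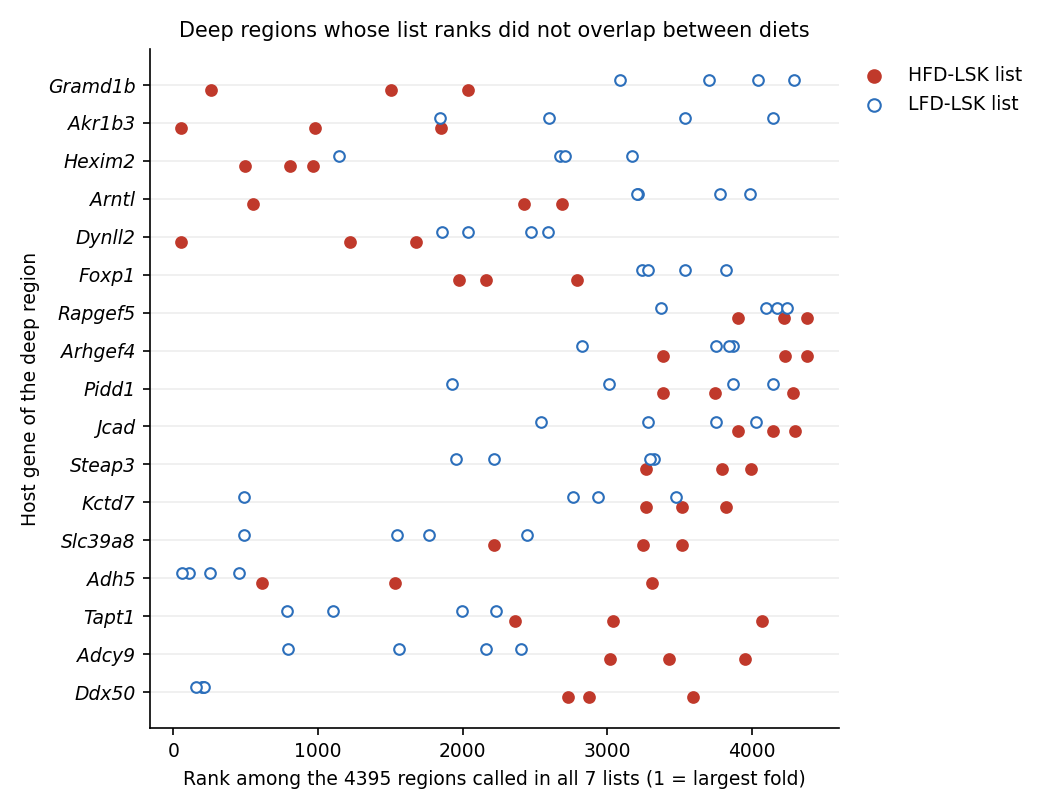
Ranks among the 4395 regions called in all 7 lists (x axis, 1 is the largest fold) of the 17 deep regions whose list ranks did not overlap between diets (y axis, host gene), with HFD-LSK lists in red and LFD-LSK lists as open blue circles. Gramd1b and Ddx50 lie at the extremes, and the circles of 8 genes, from Rapgef5 to Slc39a8 and Akr1b3, overlap on this scale.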

How the data were processed

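H3K4me3 CUT&Tag was measured in 7 LSK libraries, and each library's peak list was analyzed as deposited. The 7 matched IgG libraries were not analysed here. The submitters' processing notes name Trim Galore, Bowtie2, Picard, MACS2, bedtools, HOMER, featureCounts and GRCm38, whereas the paper's methods name GRCm39 and SEACR and state that duplicates were removed from control libraries only. The version and threshold of MACS2 were not given in the sources used here. Each list was called on 1 library. Per peak, the authors deposited start, end and summit positions and a fold enrichment (ratio of the summit to a background). They also gave a −log10 p-value (at least 5.01), a −log10 q-value and a score of 10 times the −log10 p. The paper's methods define peaks against a matched IgG control, so whether that background came from the library or its IgG control was not settled here. The lists hold no read totals, so depth was unknown and a missing call can reflect depth or background. The IgG libraries entered only through the authors' calling.

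GRCm38 was taken as the build, since peaks sat on RefSeq gene starts of GRCm38.p6, from which the genes were taken. Strand came by gene ID from RefSeq promoter entries or, failing that, by symbol from GENCODE of GRCm39, which gave 90.5% of 49943 genes a strand and so a start (98.0% of protein-coding genes). Where both sources gave a strand, 125 of 22110 genes differed and the RefSeq strand was used. Listed transcript starts numbered 32850 in 27025 genes, and none were listed for 1 chromosome.

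A region counted as called in a list when any of its peaks overlapped it, and the best-ranked peak gave its rank by fold. Differences between diets in calls, and ranks of regions picked for them, are given without a test, since the same values chose the regions; exact permutation tests had been planned for them. Region classes were compared by an exact sign-flip test of the 7 per-list differences in medians. Python 3.11.15, pandas 2.3.3, numpy 2.4.6 and scipy 1.17.1 were used, and merging was checked against bedtools 2.31.1. The steps were tested on made-up data with known answers.

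Members, gene lists and tests were chosen with earlier results of these data known. Named regions were the 10 nearest the top among those called in 7 lists, the regions of the 5 coding hosts with the most, up to 5 called in every list of 1 diet alone, 3 in each direction whose ranks did not overlap between diets, and up to 8 per gene list. The split by listed transcript starts was added after the reference tables were seen.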

Additional observations from a re-analysis of the deposited data

Results flagged for a closer look

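In 4 cases, 1 value among the 4 LFD-LSK lists stood apart, with a gap to the nearest list that was a large part of the range of all 4. The Stim1 region was at rank percentile 25.6 in LFD-LSK replicate 1 and at 0.393, 4.01 and 3.07 in the others. The Chd9 region was at 25.7 in LFD-LSK replicate 2 and at 4.05, 1.56 and 2.70 elsewhere, and the Brd3 region was at 31.4 in the same replicate and at 2.34, 5.83 and 5.77 elsewhere. The Nfia region called in 7 lists was at 57.9 in LFD-LSK replicate 4 and at 42.2, 41.7 and 43.6 in the others. In all, 40 values were examined in this way, and groups of 3 were not examined. For normally distributed values, chance marks about 1 in 20. Rank percentiles are bounded at 0, and the Stim1, Chd9 and Brd3 regions were picked for mean percentiles near the top. That rate may therefore not hold for them. No explanation of these values was tested.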

How the results depend on the processing

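The lower rank of deep regions than of start regions kept its direction and passed the threshold in 18 of 18 alternatives, from 15.2 to 17.6 points when 1 list was left out and from 5.26 to 23.0 points otherwise. The narrower width did so in 16 of 17, and was -23.1 bp (exact permutation p = 0.188) among regions called in all 7 lists. The lower rank away from listed starts did so in 16 of 17, and was 5.38 points (exact permutation p = 0.219) among regions called in all 7 lists. The difference between diets in the share of deep regions called ran from 1.23 points with lists of equal length to 33.2 points over 17 alternatives. That in the deep share of a list's called regions turned to -0.00198 points with regions called in at least 3 lists.

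Deep regions numbered 711 when each list was limited to the 6921 peaks of the shortest and 724 when listed transcript starts counted as gene starts. They numbered 1830 when starts of protein-coding genes alone counted, and 1096 to 1340 when a list was left out. The share at a listed start ran from 42.2% to 58.2% over its alternatives. The counts of regions separated by diet moved with many settings, and the cause was not tested. For most of these settings the shares over all regions were not computed, so the counts do not set deep regions apart. With a list left out fewer lists have to agree, so more regions can meet a pattern. Regions called in all HFD-LSK lists and no LFD-LSK list numbered 12 at a −log10 q of at least 5 and with a call covering at least 50% of the region, 3 with lists of equal length, over 5 kb from every start and with listed starts counted, and 7 to 135 with a list left out, the highest without HFD-LSK replicate 1, with 37 when LFD-LSK replicate 2 and 20 when LFD-LSK replicate 3 was left out. Those called in all LFD-LSK lists and no HFD-LSK list numbered 1 with lists of equal length and 0 to 2 with a list left out. Regions nearer the top in HFD-LSK numbered 2 at the stricter q, 0 with the 50% cover and 10 with coding starts alone, and 8 to 18 with a list left out. Those farther from it numbered 7 at the stricter q, 1 with lists of equal length, 5 with the 50% cover, 2 with listed starts counted and 4 with ranks among regions called in all lists, and 17 to 35 with a list left out. The ranking among those regions, the counting of listed starts and the restriction to regions called in all lists were chosen after seeing the data.

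The labels did not say whether libraries with the same replicate number were paired, and the correlations below cannot settle it. Deviations of same-numbered libraries from their group means correlated at 0.159, -0.00381 and 0.0547 over 4395 regions. With the replicate block, the share of deep regions called differed by 16.8 points and the deep share by 0.510 points, and neither changed direction.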
